A study of Danio rerio with 12 samples.

Results

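Chromosomes 3, 8, 12, 15 and 16 are zebrafish chromosomes on which melanoma libraries held, on average, a smaller share of their open-chromatin peaks than melanocyte libraries. They were picked on that contrast. Other chromosomes, among them 4, 14 and 21, also had a lower mean share in melanoma, so this is not particular to the 5. Their members are the peak intervals lying on them among the 57910 strongest intervals of each library, ranked by the −log10 p-value of the peak call, on chromosomes 1 to 25. This gave 132386 intervals of 694920 over 12 libraries, with 9658 to 11256 in a melanoma library and 12102 to 12917 in a melanocyte library.

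The 8 MA libraries came from GFP-sorted melanoma cells, 1 tumor-bearing fish each, of the genotype BRAFV600E/p53lf/lf with the crestin:EGFP reporter. The 4 MC libraries came from mCherry-sorted skin melanocytes. MC_Het (replicates 4, 5 and 6) was of the genotype BRAFV600E/+, p53+/lf, MC_Homo was a single library from a BRAFV600E, p53lf/lf fish, and both carried mitfa+/- and the MiniCoopR mitfa:mCherry reporter. All fish thus carried the BRAF transgene, which the mitfa promoter drives in pigment cells, together with a p53 loss-of-function allele, and each library came from a separate fish. Type, reporter, the mitfa+/- label of MC and tissue differed together, as did the labeled BRAF and p53 genotypes in 3 of 4 MC libraries. These cannot be told apart. The labels put MA replicates 6 to 11 in run 3. MA replicates 4 and 5 were of run 2, as was every MC library, so run 3 holds no MC library. Tag depth, recovered from the peak scores and given in units of 1e6 tags, was 6.05 to 11.5 in MA and 6.42 to 24.6 in MC.

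ATAC-seq uses a transposase that cuts DNA where nucleosomes leave it open, so promoters and enhancers in use collect tags and are called as peaks. The number of tags at a site follows both how often the site is open and how many copies of it a cell holds. Cancers, melanoma among them, often gain or lose whole chromosomes or long segments. In a list of peaks a lower share can come from either source, and here openness and copy number cannot be told apart. The share is also relative, since every list holds the same number of intervals and a rise elsewhere lowers it. A genome sequence and gene annotation of the assembly the peaks were called on (GRCz11) were not used here, so regions are given by position only and no gene names are attached.

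The 5 chromosomes together held 17.8% ± 1.1 of the intervals in MA (SD, n = 8) and 21.5% ± 0.65 in MC (SD, n = 4). All 8 MA libraries were below all 4 MC libraries. The MA shares were 19.4, 19.4, 17.7, 17.0, 17.4, 16.8, 16.7 and 18.1% in replicates 4 to 11, against 22.3, 21.1 and 21.8% in MC_Het replicates 4, 5 and 6 and 20.9% in MC_Homo. The 95% Wilson interval of such a share is at most 0.339 percentage points to either side, and covers counting error only. As the chromosomes were chosen on this difference, it is given without a test.

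Taken one by one, the chromosomes were not all low in the same tumors, but their low tumors overlapped. Each MA library was below all 4 MC libraries on 3 to 5 of the 5. Chromosomes 3, 15 and 16 were each below all 4 MC libraries in MA replicates 6 to 10. Chromosome 3 held 3.09 to 5.29% of the list in MA (median 4.08%) and 5.07 to 5.48% in MC. On chromosome 8 the shares ran from 3.03 to 4.61% in MA (median 3.96%) and from 4.03 to 4.52% in MC. For chromosome 12 they were 2.28 to 3.77% in MA (median 3.19%) and 3.38 to 3.62% in MC. Chromosome 15 reached 2.59 to 4.17% in MA (median 3.14%) and 3.75 to 4.19% in MC, and chromosome 16 held 2.07 to 4.56% in MA (median 3.39%) and 4.27 to 4.74% in MC. In every one of the 5 the lowest MA library was well under the MC range, while at least 1 MA library lay within or above it. MA libraries below all 4 MC libraries numbered 6 for chromosome 3, 4 for chromosome 8, 6 for chromosome 12, 7 for chromosome 15 and 6 for chromosome 16, where 37.5% of all 200 pairs of chromosome and MA library lay below MC.

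**Figure D1:**
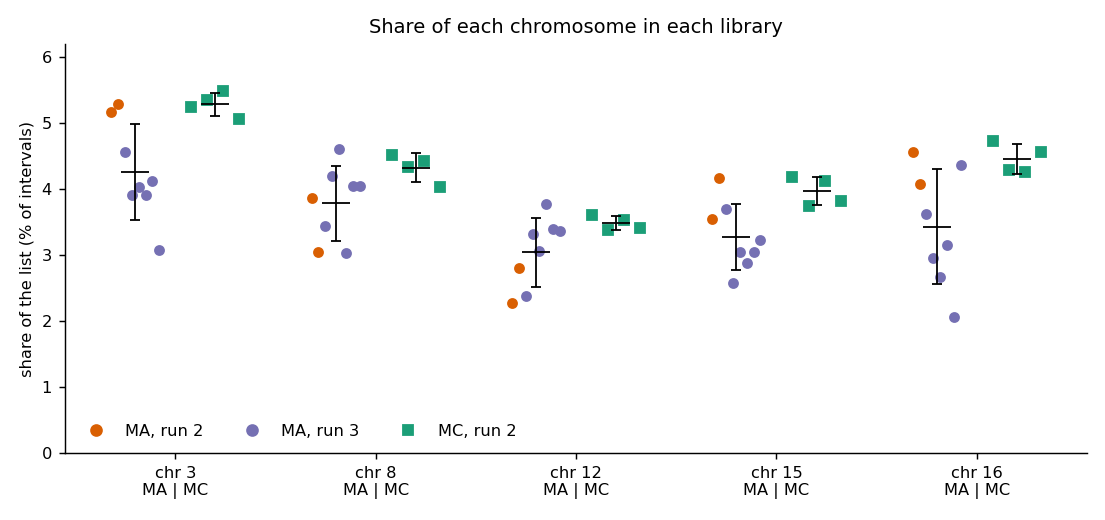
Share of each of the 5 chromosomes in the 57910 strongest intervals of each library (%, y axis), with MA libraries to the left (circles, colored by sequencing run) and MC libraries to the right (squares). Bars are the mean ± SD of 8 MA or 4 MC libraries. MC libraries lie close together on each chromosome, and MA libraries spread from the MC level down to 2.07% on chromosome 16.

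The log2 ratio of a share to the MC mean puts the chromosomes on one scale. Mean ratios over the 8 MA libraries were -0.33 ± 0.25 for chromosome 3, -0.21 ± 0.22 for chromosome 8, -0.21 ± 0.26 for chromosome 12, -0.29 ± 0.22 for chromosome 15 and -0.42 ± 0.39 for chromosome 16 (SD, n = 8). MC libraries, each against the other 3, stayed between -0.14 and 0.11 on these chromosomes. The lowest ratios belonged to different tumors. MA replicate 10 had the lowest chromosome 16 at -1.11, MA replicate 11 the lowest chromosome 3 at -0.78, MA replicate 7 the lowest chromosome 15 at -0.62, MA replicate 4 the lowest chromosome 12 at -0.61, and MA replicates 5 and 9 the lowest chromosome 8 at -0.51 each. The same tumors were near the MC level, or above it, on another member. MA replicate 11, for example, had -0.03 on chromosome 16 and MA replicate 4 had 0.03 on chromosome 16. MA replicate 9 had 0.11 on chromosome 12, where its share was above all 4 MC libraries. Of the 40 pairs of member chromosome and MA library, 20 were at or below -0.3, against 19.5% of all 200 pairs. The 5 were not simply the lowest of 25 by mean ratio. Chromosome 4 at -0.28 and chromosome 21 at -0.21 lay among the members, and chromosome 14 at -0.15 was next above them.

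Whether several of the 5 were low in the same tumor was asked across the 8 MA libraries. The pair with the strongest negative relation was chromosomes 3 and 12 (Pearson r = -0.73, exact permutation p = 0.0428; Spearman rho = -0.67, exact permutation p = 0.0831). The strongest positive one was chromosomes 3 and 15 (r = 0.71, exact permutation p = 0.0485; rho = 0.71, exact permutation p = 0.0576). Within the 6 libraries of run 3 these were r = -0.58 and r = 0.31, and the same values came out without the 2 libraries farthest from the median of chromosome 3, the 2 of run 2 in this case (n = 6, exact permutation p = 0.222 for chromosomes 3 and 12 and 0.529 for chromosomes 3 and 15). After Benjamini-Hochberg adjustment over all 300 pairs of 25 chromosomes, none of the 10 member pairs passed (lowest adjusted p = 0.711), while 2 of the 10 had an unadjusted exact permutation p under 0.05. Shares of 1 list sum to a constant, which lowers correlations between chromosomes. The libraries therefore gave no pairing of the 5 chromosomes that held up.

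Sequencing run was a second axis within MA. The summed share was 19.4% ± 0.03 in the 2 MA libraries of run 2 and 17.3% ± 0.57 in the 6 of run 3 (SD), a difference of 2.14 percentage points with no overlap. Against MC, run 2 alone gave a difference of -2.12 percentage points, compared with -3.73 over all 8 MA libraries. Within run 2 the MA means of chromosomes 3 (5.23% in MA, 5.29% in MC), 15 (3.86% in MA, 3.97% in MC) and 16 (4.32% in MA, 4.47% in MC) were within the range of the 4 MC libraries. Those of chromosomes 8 (3.46% in MA, 4.33% in MC) and 12 (2.54% in MA, 3.49% in MC) were below it, so the difference within the run lay mostly on these. The means of chromosomes 15 and 16 hide unlike libraries. MA replicate 4 on chromosome 15 (3.55%) and MA replicate 5 on chromosome 16 (4.09%) were below all 4 MC libraries, and the other run 2 library was within their range. Chromosome 3 averaged 5.23% ± 0.09 in run 2 and 3.94% ± 0.48 in run 3 (two-sided exact permutation p = 0.0357 over 28 splits, the smallest possible; adjusted over 25 chromosomes p = 0.446). Chromosomes 15 (3.86% against 3.08%) and 16 (4.32% against 3.14%) were also higher in run 2, and chromosomes 8 (3.46% against 3.9%) and 12 (2.54% against 3.22%) were lower there. Of all 25 chromosomes, 4.0% had an unadjusted p under 0.05 and 0.0% an adjusted one. With 2 libraries in run 2, tumor and run cannot be told apart.

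The fall was then scanned in windows of 5 Mb, counted from the first base. The 5 chromosomes made 56 windows, of which 55 had at least 50 intervals in the MC mean and were used. In 31 of the 55 the mean MA ratio was at or below -0.3, where the share over all 276 windows used was 18.1%. Mean ratios ran from -0.67 to 0.12, and 51 of the 55 were below 0. MC windows, each against the other 3 libraries, lay between -0.29 and 0.32, and 0 of 220 such values reached -0.3. A window was counted as lowered in an MA library when its ratio was at or below -0.3 and its share was below that of every MC library. Of the 55 windows, 54 were lowered in at least 1 MA library (66.7% of all windows), 42 in at least 3 (29.0%), 24 in at least 5 (13%) and 0 in all 8 (1.45%). No window of the 5 chromosomes was thus lowered in every tumor at this list length, while 4 were among the 10000 strongest intervals. The number of lowered windows of the 55 was 16 in MA replicate 4 (16.3% of all windows), 18 in replicate 5 (22.1%), 24 in replicate 6 (17.4%), 36 in replicate 7 (25%), 31 in replicate 8 (25.4%), 38 in replicate 9 (26.4%), 32 in replicate 10 (30.1%) and 20 in replicate 11 (21.4%).

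**Figure D2:**
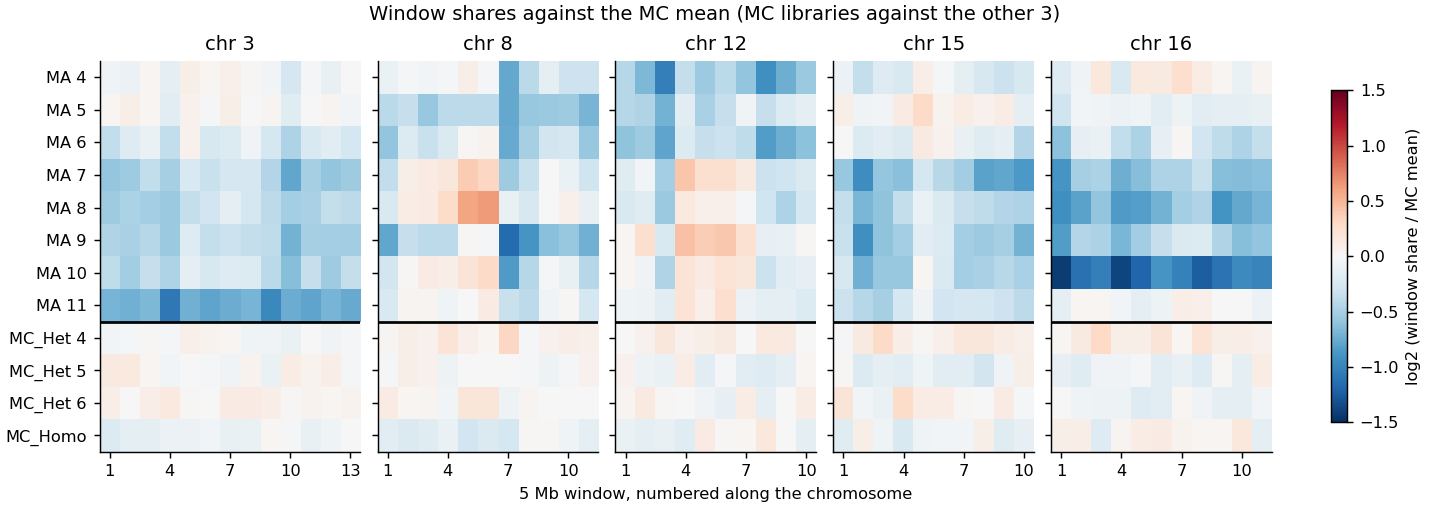
Log2 ratio of the share of each 5 Mb window (x axis, windows numbered along each chromosome) to the MC mean, for 8 MA libraries above the line and 4 MC libraries below it. Blue is a lower and red a higher share. Some falls fill whole rows of a chromosome, as for chromosome 16 in MA replicate 10 (-0.89 to -1.42) and chromosome 3 in MA replicate 11 (-0.67 to -1.07), and MC rows stay between -0.29 and 0.32.

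Of the 20 pairs of member chromosome and MA library at or below -0.3, 13 were lowered whole by a rule that allows some windows without a fall. A chromosome was called lowered whole in a library when at least 80% of its windows were at or below -0.3, and lowered in part when fewer were but at least 3 adjacent windows were. Among the 40 pairs of member chromosome and MA library, 13 were lowered whole, 7 in part and 20 neither, where 10.5% of all 200 pairs were lowered whole and 14% in part, so the share in part was near that of all chromosomes. The 20 MC pairs of these chromosomes gave 0 of either kind. Chromosome 16 was lowered whole in MA replicates 7, 8, 9 and 10, chromosome 15 in replicates 7, 8 and 9, chromosome 3 in replicates 9 and 11, chromosome 8 in replicates 5 and 9, and chromosome 12 in replicates 4 and 6. MA replicate 9 thus had 4 of the 5 lowered whole, with chromosome 12 the exception. Its chromosome 8 passed the rule with 9 of 11 windows but was interrupted. There 20 to 25 Mb stood at 0.02 and 25 to 30 Mb at -0.02, beside -1.15 at 30 to 35 Mb. The 7 partial falls were on chromosome 3 in replicates 7, 8 and 10, on chromosome 12 in replicate 5, on chromosome 15 in replicates 10 and 11, and on chromosome 16 in replicate 6. In all 7 the ratio of the chromosome was between -0.44 and -0.30, close to the limit that its windows were read against. In the same order, the highest window was -0.23, -0.15 and -0.15 on chromosome 3 and -0.05 on chromosome 12. It was 0.03 and -0.05 on chromosome 15 and 0.02 on chromosome 16. The label therefore does not tell a fall of a segment from a shallow fall along the chromosome.

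Several whole-chromosome falls had every window at or below -0.3. Chromosome 16 in MA replicate 10 had all 11 windows between -1.42 and -0.89. The same chromosome had all 11 between -0.92 and -0.45 in MA replicate 8 and between -0.89 and -0.34 in MA replicate 7. Chromosome 3 in MA replicate 11 had all 13 windows between -1.07 and -0.67. Chromosome 12 in MA replicate 4 had all 10 windows between -1.03 and -0.35, and chromosome 8 in MA replicate 5 had all 11 between -0.77 and -0.35. When each chromosome was split at its midpoint, the part after and the part before the midpoint differed by a median of 0.06 over the 40 pairs and by at most 0.26. In 4 pairs the difference was over 0.2. These were chromosome 8 in MA replicates 4, 9 and 10, lower after the midpoint (-0.29 against -0.03, -0.62 against -0.41, and -0.22 against 0.02), and chromosome 12 in MA replicate 5, lower before it (-0.45 against -0.20).

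Windows spread less when each MA library was set against the mean of the other 7 MA libraries instead of MC, a comparison chosen after seeing the data. The median SD of windows within a chromosome was then 0.10 over the 40 pairs (0.04 to 0.23), compared with 0.17 against MC. If intervals were independent counts, counting error would give an SD of 0.12 (median over the 40 pairs, 0.10 to 0.15). The window SD was above its own counting SD in 12 of 40. As the median window SD was below 0.12, that figure overstates counting error here and cannot show whether windows were level. The 40 chromosome values themselves had an SD of 0.30. Tumors thus differed from each other in the level of a chromosome by more than its windows differed among themselves.

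The widest spread of windows was a step, singled out after its values were seen. On chromosome 12 of MA replicate 5, the first 6 windows (0 to 30 Mb) were at -0.52 to -0.20 against the other 7 MA libraries, and the last 4 (30 to 49.2 Mb) were at 0.00 to 0.15. No other pair had so large an SD of windows (0.23). MA replicates 4 and 6, which were low on the same chromosome, were low over all 10 windows (-0.60 to -0.23 and -0.51 to -0.29). Chromosome 8 of MA replicate 5 varied next most, from -0.61 at 25 to 30 Mb to -0.05 at 0 to 5 Mb.

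**Figure D3:**
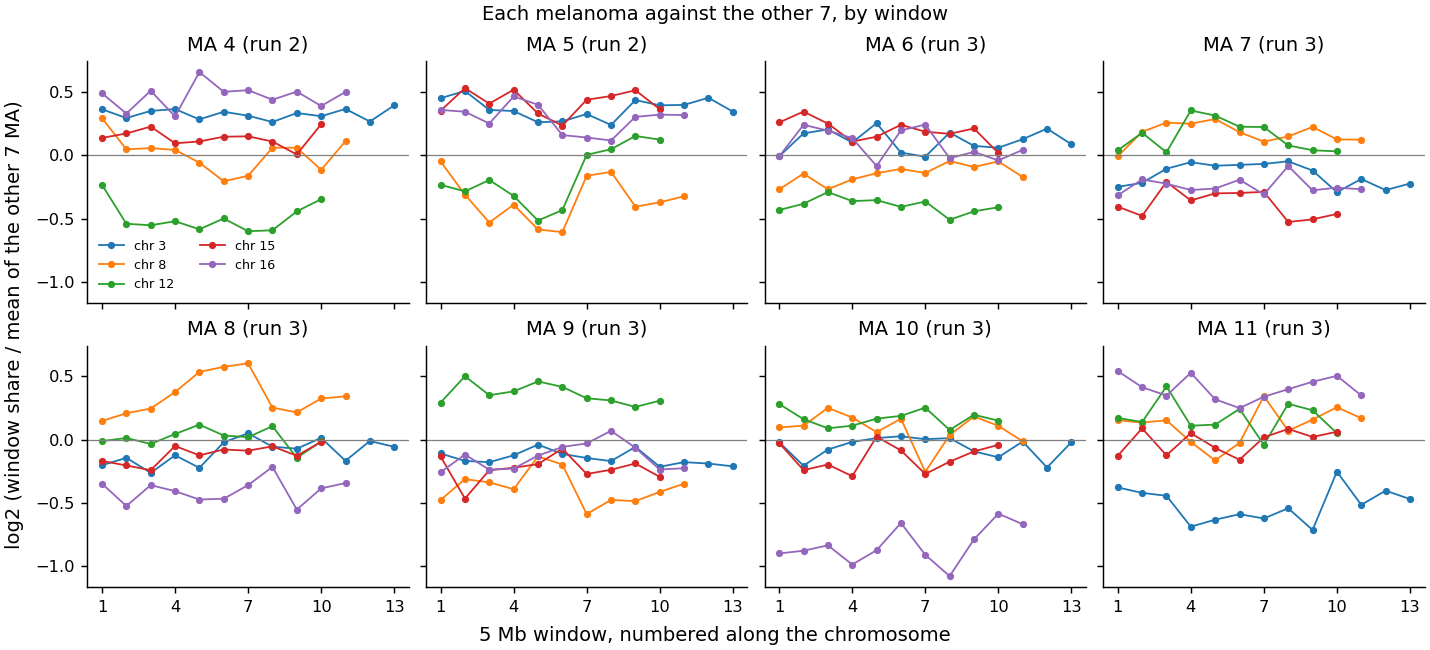
Log2 ratio of the share of each 5 Mb window (x axis, windows numbered along each chromosome) to the mean of the other 7 MA libraries, 1 panel per MA library and 1 line per chromosome. Lines stand at different heights (SD 0.30 over chromosome values) and vary less along a chromosome (median SD 0.10). The lowest is chromosome 16 in MA replicate 10, and chromosome 12 in MA replicate 5 steps up after its first 6 windows.

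Against MC, the lowest and highest windows of each chromosome show how much the scan varied along it. On chromosome 8 the lowest window, at 30 to 35 Mb, averaged -0.66 over MA (-1.15 to -0.11, lowered in 7 of 8). The highest was its neighbor at 25 to 30 Mb, which averaged 0.12 (-0.40 to 0.64, lowered in 1). MC libraries spanned -0.27 to 0.32 in that lowest window, which held the fewest MC intervals of the windows named here (a mean of 124.5). Chromosome 12 likewise had its lowest window at 10 to 15 Mb (mean -0.56, -1.03 to -0.17, lowered in 6) beside its highest at 15 to 20 Mb (mean 0.08, -0.35 to 0.44, lowered in 1). On chromosome 16 the first 5 Mb were lowest (mean -0.67, -1.42 to -0.15, lowered in 6), and 30 to 35 Mb was highest (mean -0.24, -1.01 to 0.25, lowered in 3). On chromosome 15 the lowest was at 5 to 10 Mb (mean -0.54, -0.93 to -0.05, lowered in 6) and the highest at 20 to 25 Mb, at -0.26 to 0.29 and lowered in none. The gap was smallest on chromosome 3, between 45 to 50 Mb (mean -0.54, -0.78 to -0.18, lowered in 6) and 20 to 25 Mb (mean -0.18, -0.72 to 0.09, lowered in 2). Every lowest window was below 0 in all 8 MA libraries, and no highest window was.

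The fall differed by the width of the intervals, a split chosen after seeing the data. Intervals of 119 to 121 bp, which made up 6.91 to 23.4% of the members in MA and 20.1 to 31.3% in MC, showed less of the fall. Among them the 5 chromosomes held 20.2% ± 0.67 in MA and 20.8% ± 0.30 in MC (SD, n = 8 and n = 4), and 0 of 40 chromosome ratios reached -0.3 (-0.25 to 0.16), against 0.5% of all 200 pairs. By mean ratio the fall left among them was largest on chromosome 12, at -0.11 (-0.25 to 0.09), against -0.21 over all intervals. MC libraries lay between -0.09 and 0.06 there. Chromosome 16 followed at -0.07 (-0.17 to 0.08), against -0.42 over all intervals, with MC libraries at -0.05 to 0.03. Among intervals of at least 150 bp the 40 ratios ran from -1.61 to 0.17, and 22 of 40 were at or below -0.3, against 21.5% of all 200 pairs. The mean ratio of the 5 chromosomes together was -0.35 for intervals of at least 150 bp and -0.04 for those of 119 to 121 bp. The narrow intervals moved with sequencing run, at 22.8 and 23.4% of members in the MA libraries of run 2 and 6.91 to 9.68% in run 3. They also moved with chromosome within a tumor. On chromosome 12 they made up 32.5% of the intervals in MA replicate 4, where that chromosome was low, against 19.6 to 23.3% on the other 4 members. The part of run in the fall was not tested beyond the values above.

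Tag pileup, the height of a peak in overlapping tags, is a second measure from the same lists that is not itself a count of intervals. The p-value that ranks intervals is computed from pileup, so share and pileup are not independent. Pileup was compared at regions found in all 12 lists, which leaves out sites missing from any list. It is given in CPM (tags per 1e6 tags of the library), as a log2 ratio to the MC mean. From each ratio was taken the median of that ratio over all such regions of the same width class in the same library. Before that median was taken off, pileup at regions of 200 bp or more was higher in MA than in MC for all 40 pairs of member chromosome and MA library (0.17 to 2.09), and at regions under 200 bp it was lower for all 40 (-0.79 to -0.06). The medians themselves were 0.76 to 2.01 and -0.72 to -0.13. The falls described next are therefore relative to the other chromosomes of the library, and at wide regions they are smaller rises over MC. At regions of 200 bp or more the 40 values less the median ran from -1.14 to 0.43, and 19 were at or below -0.3, against 21.0% of all 200 pairs. MC libraries stayed between -0.13 and 0.10 on these chromosomes. At regions under 200 bp the 40 values ran from -0.08 to 0.10, and 0 were at or below -0.3, against 0.0% of all 200 pairs. With all widths together they ran from -1.09 to 0.70, with 13 at or below -0.3 (16.5% of all 200 pairs), and the mean over MA was 0.10 on chromosome 3, 0.17 on chromosome 8, 0.07 on chromosome 12, -0.60 on chromosome 15 and -0.25 on chromosome 16. Except on chromosome 16, these pooled means lay outside the means of both width classes. At wide and narrow regions the means were -0.21 and -0.02 on chromosome 3, -0.14 and -0.02 on chromosome 8, -0.17 and 0.04 on chromosome 12, and -0.30 and 0.04 on chromosome 15. As the classes differ in level, a pooled mean also depends on the mix of widths on a chromosome, and is not read as a change of the chromosome. When regions were classed by their widest MC interval instead, the wide class gave -1.19 to 0.45 with 20 at or below -0.3 (22.5% of all 200 pairs). The wide regions numbered 333 on chromosome 3, 244 on chromosome 8, 161 on chromosome 12, 166 on chromosome 15 and 223 on chromosome 16, and the narrow ones 162, 103, 79, 122 and 131 in the same order.

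Wide-region pileup, less the median of the library, followed the share of the chromosome from tumor to tumor. On chromosome 16 it was -1.14 in MA replicate 10, which had the lowest share, and 0.41 in MA replicate 4, which had the highest. On chromosome 12 it was -0.81 in MA replicate 4 and 0.43 in MA replicate 9, again the lowest and highest shares. Across the 8 MA libraries Pearson's r between share ratio and pileup was 0.92 for chromosome 3, 0.98 for chromosome 8, 0.997 for chromosome 12, 0.99 for chromosome 15 and 0.97 for chromosome 16, with adjusted p between 0.000155 and 0.00178 (exact permutation over all orders, Benjamini-Hochberg over 25 chromosomes). Spearman's rho was 0.90 to 1 (adjusted p 0.000248 to 0.0057, exact permutation). Within run 3 alone r was 0.83 to 0.996 (n = 6, exact permutation p 0.00139 to 0.0153), with rho of 0.83 to 1 that did not pass for chromosomes 8 and 12 (exact permutation p = 0.0583 each). Without the 2 libraries farthest from the median share r was 0.91 to 0.99. Both measures come from the same tags, and the relation passed for 100% of the 25 chromosomes, so it is not particular to the 5.

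**Figure D4:**
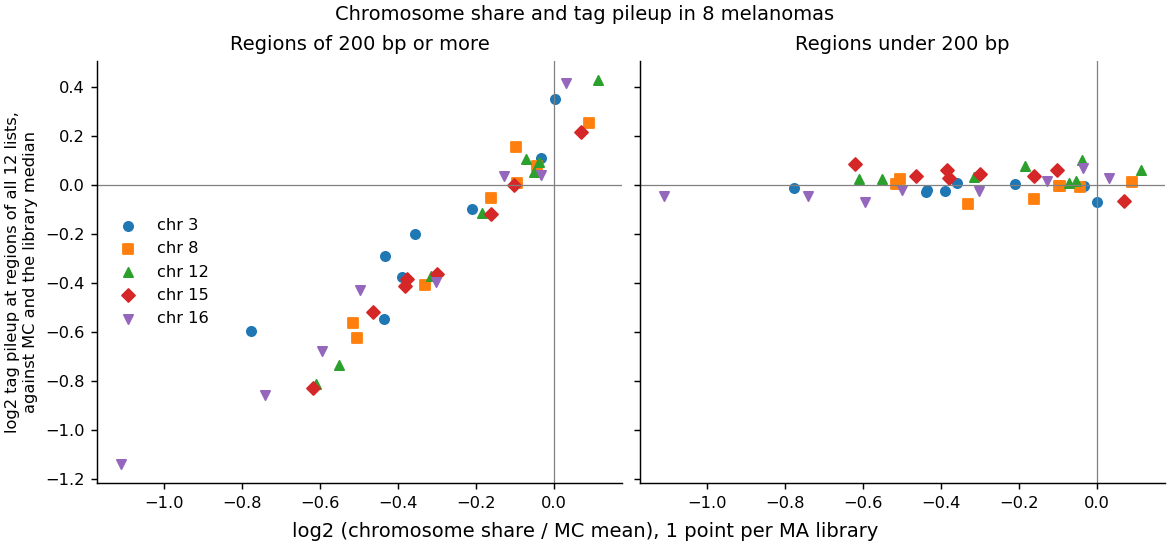
Tag pileup at regions found in all 12 lists (y axis, log2 ratio to MC less the median of its width class in the library) against the log2 ratio of the chromosome share to MC (x axis), 1 point per member chromosome and MA library. Regions of 200 bp or more (left) run from -1.14 to 0.43 along with the share, and regions under 200 bp (right) stay between -0.08 and 0.10 whatever the share.

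The local background that the peak caller used, the mean tag density around a site where that exceeds the genome average, was lower on many members relative to other chromosomes of the same library, but for the 5 together it was higher in every MA library than in any MC library. As a multiple of the genome average, its median at wide regions of the 5 chromosomes was 1.49 to 2.41 in MA (median of libraries 1.91) and 1.25 to 1.45 in MC (1.39). On the other 20 chromosomes the median of libraries was 2.56 in MA and 1.40 in MC. At the wide regions of all 12 lists its median on a member chromosome was set against the median on the other 20 chromosomes of the same library. The 40 MA values ran from -1.22 to 0.31 on the log2 scale, with 21 at or below -0.3, against 26% of all 200 pairs. The 20 MC values ran from -0.18 to 0.11, with 0 at or below -0.3. The lowest value was chromosome 16 in MA replicate 10 at -1.22, followed by chromosome 15 in MA replicate 7 at -1.06. The lowest values of the other members were -0.96 on chromosome 12 in MA replicate 6, -0.69 on chromosome 8 in MA replicate 9 and -0.64 on chromosome 3 in MA replicate 11. At chromosome 16 in MA replicate 10 the median stood at the genome average, the lowest value this background can take. The background includes tags of the peaks themselves, which lie within the same window.

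Regions that stayed detected despite the fall were sought by merging the 12 lists at 1 bp of overlap, which gave 37236 regions on the 5 chromosomes. Of these, 1724 were in all 12 lists (4.63%), against 4.3% over all 25 chromosomes and 4.23% on the other 20. Regions in a single list made up 45.1% of the 37236 (44.3% over all 25 chromosomes). The 1724 numbered 495 on chromosome 3, 347 on chromosome 8, 240 on chromosome 12, 288 on chromosome 15 and 354 on chromosome 16. The 31 windows with a mean ratio at or below -0.3, of 55 used, held 961 of the 1724. They held 7 to 56 a window with a median of 30, so no fallen window was without one. The other windows were not set beside them, so the 961 are not read as particular to fallen windows.

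Starting from regions in all 4 MC lists, 36.3% of the 4747 on the member chromosomes were also in all 8 MA lists, and 37.1% over all chromosomes. MA replicate 4 held 82.2% and MA replicate 5 held 88.1% of the 4747, both of run 2, and the 6 MA libraries of run 3 held 50.6 to 54.9%. These shares were close to those on the other 20 chromosomes (82.9 and 87.6%, and 51.0 to 56.0%). Detection differed between the runs by more than between the chromosomes, and with 2 MA libraries in run 2 this was not tested. It also differed by width. Of regions of 200 bp or more, 49.1% on the members and 52.9% on the other 20 stayed in all 12 lists, and of regions under 200 bp 24.3% and 23.6% did. In MA replicate 10, chromosome 16 kept 55.2% of its wide MC regions, against 63.2 to 70.4% on the other 4 members in that library.

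The strongest MC regions stayed most often. Regions that stayed were also wider, but a region is the union of its intervals over the 12 lists, so one found in more lists is wider in part by construction. Regions of the 5 chromosomes in all 12 lists had a median width of 298 bp, with 34.6% under 200 bp. Those in all MC lists but missing from at least 1 MA list had a median of 157 bp, with 61.4% under 200 bp. Ordered into 4 groups of like size by mean rank in MC, from strongest to weakest, 56.9, 28.5, 30.2 and 29.7% on the members stayed in all 12 lists. On the other 20 chromosomes the 4 groups gave 56.8, 27.0, 29.6 and 35.8%.

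The regions named in fallen windows were required to be in all 12 lists and were taken for their MA rank, so their high MA values follow from that choice. The best ranked was chr16:51444992-51445199 (208 bp), with a mean rank of 3.62 in MA and 3.75 in MC of 57910. Its fold enrichment, the pileup over local background after adding 1 to each, was 80.7 to 84.0 in MA (median 83.3) and 81.9 to 87.7 in MC. Its pileup was 169 to 262 CPM in MA (median 212) and 157 to 278 in MC. In MC it fell as depth rose, from 278 in MC_Homo (depth 6.42) to 157 in MC_Het replicate 5 (24.6). The deepest MA libraries, replicates 6, 7 and 8 (8.78 to 11.5), had the lowest MA values (169 to 174). Such ranges are therefore not read as differences between types or tumors, and the part of depth was not tested. In MA replicate 10, whose chromosome 16 share was lowest, the pileup was 232. The other region of chromosome 16, chr16:14720252-14720377 (126 bp), had 40.5 to 52.4 CPM in MA (median 48.2) and 35.3 to 54.7 in MC. In MA replicate 10 both were above the MA median. The same library was also above it at both such regions of chromosomes 3, 8 and 15, so this was not particular to chromosome 16.

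On chromosome 3, chr3:62193044-62193282 (239 bp) had 83.0 to 121 CPM in MA (median 105) and 89.9 to 143 in MC. On the same chromosome chr3:8430410-8431438 (1029 bp) had 135 to 198 (median 162) in MA and 175 to 240 in MC. In MA replicate 11, whose chromosome 3 was lowest, they stood at 121 and 198, the highest of the 8 MA libraries. This was not particular to chromosome 3. MA replicate 11, the MA library of lowest depth (6.05), was also highest at both such regions of chromosomes 8, 15 and 16 and at chr12:43919276-43919404. On chromosome 8, chr8:3268160-3268595 (436 bp) had 76.0 to 120 in MA (median 93.1) and 75.8 to 113 in MC, and chr8:52514410-52514848 (439 bp) had 39.6 to 61.7 (median 54.1) in MA and 43.1 to 71.7 in MC. On chromosome 15, chr15:42146243-42147004 (762 bp) had 104 to 142 (median 123) in MA and 113 to 158 in MC, and chr15:45812490-45812712 (223 bp) had 24.3 to 42.3 (median 31.1) in MA and 37.7 to 55.6 in MC. Chromosome 12 gave chr12:43919276-43919404 (129 bp) with 22.4 to 42.0 (median 30.3) in MA and 27.0 to 45.5 in MC. The most variable of the 10 was chr12:40769188-40769560 (373 bp), at 12.7 to 38.5 CPM in MA (median 17.6) and 11.2 to 16.5 in MC, with MA replicates 7 and 4 highest at 38.5 and 33.0. Its mean rank was 796 in both types, whereas the other 9 lay between 3.62 and 208 in MA and between 3.75 and 160 in MC.

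Regions found more often in one type are given as counts only. The contrast is the one that chose the chromosomes, so their shares restate that choice. By two-sided Fisher's exact test of detection over 53483 regions, with Benjamini-Hochberg adjustment, 455 of 9848 member regions tested were found more often in MA (4.62%, where 6.6% of all regions tested were) and 127 more often in MC (1.29%, where 1.02% were). At an unadjusted p under 0.05 these were 1199 (where 16.4% of all regions tested were) and 880 (where 7.11% were). After adjustment only a region in every list of one type and none of the other could pass, at an adjusted p of 0.0265. The 455 had a median width of 410 bp with 1.1% under 200 bp, and the 127 had a median of 216 bp with 45.7% under 200 bp.

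The best ranked region of each chromosome in all 8 MA lists and no MC list varied between tumors. On chromosome 16, chr16:20371358-20371916 (559 bp) had 2.15 to 18.7 CPM in MA (median 11.9), with the lowest value in MA replicate 10. On chromosome 3, chr3:54756070-54756486 (417 bp) had 3.31 to 16.2 (median 8.91), with the lowest in MA replicate 11. In each the lowest value fell in the tumor with the lowest share of that chromosome. For MA replicate 11 a low value was not particular to chromosome 3. That library was also lowest at the region of chromosome 15 (3.80). Its median pileup ratio at wide regions of all 12 lists (0.76) was the lowest of the 8 MA libraries. Nor was a low value in MA replicate 10 particular to chromosome 16. At the regions of chromosomes 3 (4.29) and 15 (5.98) only MA replicate 11 was lower than MA replicate 10. At those of chromosomes 8 (6.75) and 12 (7.36) more MA libraries were lower. On chromosome 8, chr8:25886438-25887106 (669 bp) had 4.33 to 19.9 (median 7.12), lowest in MA replicate 5 and highest in MA replicate 8, which had the highest chromosome 8 share. On chromosome 12, chr12:26855177-26855496 (320 bp) had 5.71 to 17.4 (median 8.45), lowest in MA replicate 4. On chromosome 15, chr15:44127147-44127476 (330 bp) had 3.80 to 20.3 (median 11.3), lowest in MA replicate 11 rather than in replicate 7. Within the complete lists, these 5 regions were also present in 0 to 2 of the 4 MC libraries, at ranks beyond the equal list length.

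The best ranked regions in all 4 MC lists and no MA list were mostly weak. On chromosome 8, chr8:12625495-12625614 (120 bp) had 2.07 to 2.36 CPM in MC, on chromosome 12 chr12:44897998-44898121 (124 bp) had 1.87 to 2.68, and on chromosome 15 chr15:16508919-16509072 (154 bp) had 1.81 to 2.18. On chromosome 3, chr3:43374502-43374696 (195 bp) had 0.93 to 4.01 and was in 3 of the 8 complete MA lists. The exception was chr16:30173157-30173276 (120 bp), with 25.5, 15.6 and 3.76 CPM in MC_Het replicates 4, 5 and 6 and 12.9 in MC_Homo. It was in 0 of the 8 complete MA lists, as were those of chromosomes 8, 12 and 15.

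**Figure D5:**
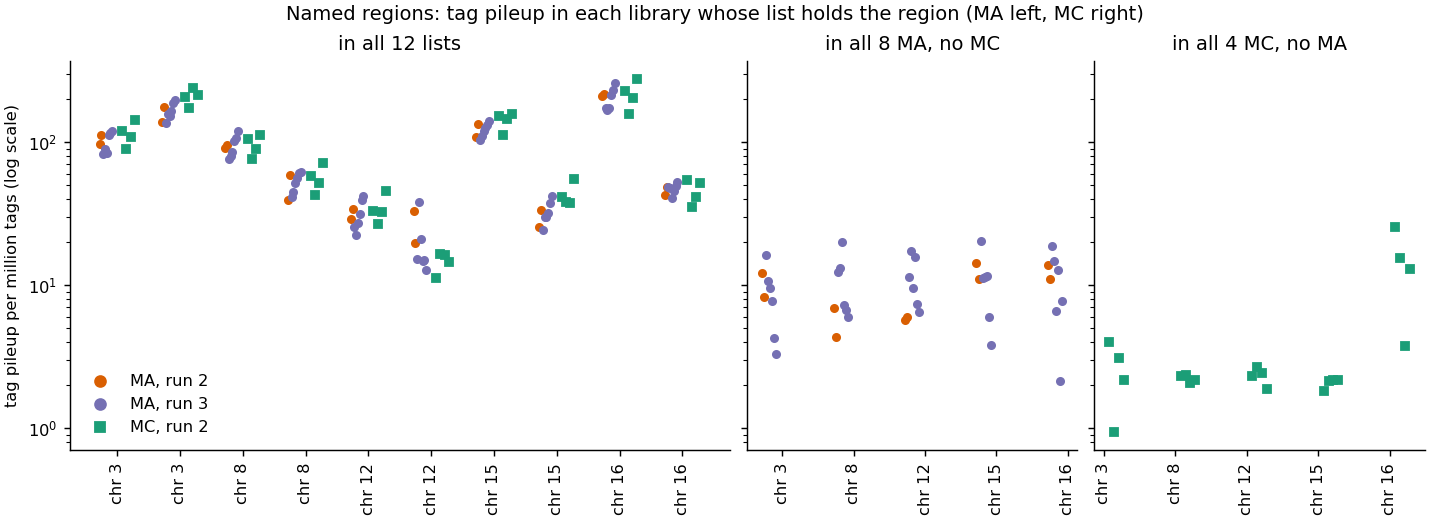
Tag pileup in CPM (tags per 1e6 tags, y axis, log scale) at the named regions, in every library whose list holds the region, with MA (circles, colored by sequencing run) left of MC (squares) for each region. The 10 regions of all 12 lists lie at 11.2 to 278 CPM, and regions of a single type lie at 0.93 to 25.5.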

How the data were processed

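Sorted cells of each fish were profiled by ATAC-seq. According to the methods, the authors trimmed adapters with CutAdapt, aligned to GRCz11/danRer11 with BWA (the labels also list GRCz10), kept proper pairs with a mapping quality above 30, removed duplicates and called peaks per library with MACS2 without a control. Versions are not given in the sources used here. For each peak the authors deposited a fold enrichment ratio, (pileup + 1) over (background + 1), and the −log10 of a Poisson p-value and of its q-value. Lists run to a q of 0.05, so absence from a list does not show absence of signal, and list length depends on depth.

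Lines differing in summit only were collapsed to 1 interval. Pileup and local background were solved from the deposited ratio and −log10 p (at least 99.998% of pileups were whole within 0.05), and depth was taken from the commonest background. Lists were cut to 57910 intervals, the shortest list. Windows of 5 Mb needed a mean of 50 MC intervals. No pair of lists shared more than 18.9% of intervals with both ends equal, so each library counted as 1 replicate. Groups, replicate numbers and runs came from the labels. Tests were exact permutation tests over MA libraries and Fisher's exact test of detection per region, with Benjamini-Hochberg adjustment over all 25 chromosomes, all 300 chromosome pairs or all regions. Alternatives varied list length, depth, threshold, interval width, windows, overlap and the libraries used. Scripts ran in Python 3.11.15 with NumPy 2.4.6, pandas 2.3.3, SciPy 1.17.1 and Matplotlib 3.10.9 and were tested on simulated data.

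The chromosomes, measures and rules were chosen with earlier results of these data known. Regions named were, on each chromosome, the 2 in all 12 lists with the best mean MA rank within windows at or below -0.3, and the best ranked 1 in all lists of a single type, and windows named were the lowest and highest by mean MA ratio. Width splits (also by widest MC interval), the comparison with other MA libraries, and the relation of share to pileup were added after seeing the data. Gene lists, cell type markers and motifs were not analysed here, so the sorted cell types were not checked against markers.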

Additional observations from a re-analysis of the deposited data

Results flagged for a closer look

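Single libraries were set against the others of their group in 81 groups of values (shares, the percentage of narrow intervals, ratios of the named windows, and pileups by chromosome, over 8 MA, 6 MA of run 3 or 4 MC libraries), where chance alone marks about 1 in 20. In 5 groups 1 library stood apart by Dixon's criterion, all of them pileups at regions under 200 bp and all small on the log2 scale. On chromosome 8 MA replicate 6 had -0.079, with the other MA libraries of run 3 at -0.0097 to 0.0097. On chromosome 15 MA replicate 5 had -0.0677, with the other 7 MA libraries at 0.0293 to 0.0862. On chromosome 16 MA replicate 11 had 0.0682, with the other MA libraries of run 3 at -0.071 to -0.0213. MC_Homo had -0.0333 on chromosome 12, with the other MC libraries at 0.0109 to 0.0187, and 0.0206 on chromosome 15, with the others at -0.0456 to -0.036. No share and no named window had a library marked in this way.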

How the results depend on the processing

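The summed share was lower in MA than in MC under all 22 alternatives, and 104 of 105 recomputed chromosome ratios were below 0. The chromosomes were picked on this contrast in the same lists, so these signs follow in part from that choice and are not separate support. The exceptions to stability were these. Run 2 alone gave -2.12 percentage points against -3.73. Narrow intervals alone gave -0.544, with ratios nearer 0 on every member: -0.0188 on chromosome 3, -0.0182 on chromosome 8, -0.113 on chromosome 12, 0.00303 on chromosome 15 and -0.0749 on chromosome 16. Windows lowered in all 8 MA libraries numbered 4 among the 10000 strongest intervals and 1 without narrow intervals, with 2 Mb windows or with a fall of -0.2, and 0 to 2 when a library was left out (2 without MA replicate 8). Whole-chromosome falls numbered 8 at a −log10 q of at least 5 and 4 with a fall of -0.5. Regions in all 12 lists numbered 197 among the 10000 strongest. Regions found more often in MA numbered 77 there, and those more often in MC 52. The thinned lists gave 72 more often in MC, and the complete lists gave 0 in either direction by Fisher's exact test with adjustment, with 909 (MA) and 1607 (MC) of 15490 member regions at an unadjusted p under 0.05 and a lowest adjusted p of 0.0709. Leaving out 1 library at a time, regions more often in MC numbered 134 to 327 against 127 (327 without MC_Homo, 228, 238 and 236 without MC_Het replicates 4, 5 and 6, 211 and 197 without MA replicates 4 and 5), and the difference between runs was 2.02 to 2.31 percentage points, where without MA replicate 4 or 5 no p under 0.05 is possible. The pileup of members relative to the other 20 chromosomes was -0.23, against -0.0663 as fold enrichment, 0.00131 at regions under 200 bp and -0.35 at wider ones. Counts of member regions, windows and whole-chromosome falls under these alternatives are given without the share over all chromosomes. They are therefore not read as particular to the members. The causes were not tested.

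Replicate numbers shared by MA and MC_Het did not pair the libraries. Deviations of same-numbered libraries correlated over 25 chromosomes at 0.06, -0.12 and 0.27 for numbers 4, 5 and 6. With the replicate number as a block the difference was -2.90 percentage points. Peak lists hold no counts below their threshold, so openness below it was not measured here.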
